A study of Caenorhabditis elegans with 2 samples.

Results

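Autosomal promoter regions whose genes all face the same way were examined in a ChIP-seq map of NHR-237, a nuclear hormone receptor of Caenorhabditis elegans. A region belonged to this set when its summit lay on chromosomes I to V and within 1000 bp of the 5′ end of at least 1 protein-coding gene, with every such gene on a single strand. Of the regions that the authors called on both libraries together, 1892 met this rule, or 28.9% of that pooled list. They are called single-strand regions here. They are set beside 471 autosomal regions with starts on both strands, 3000 autosomal regions with no start within 1000 bp, and 379 regions of the X chromosome with starts on a single strand. The other 800 regions of the pooled list, also on the X chromosome, complete it.

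The material was whole L2 larvae of both sexes, pooled, from strain OP228. This strain has the genotype unc-119(ed3) III; wgIs228, so that both libraries share the unc-119 mutation and the integrated transgene wgIs228, which by the labels concerns eGFP-tagged NHR-237. The labels list the antibody as nhr-237 and describe the target as eGFP-nhr-237, so it is not clear whether the tag or the protein itself was recognised. By the labels there is 1 group of 2 libraries, biological replicates 1 and 2, with fragments sized 150 to 350 bp. The labels do not say what drives the transgene or which cells express it. There is no contrast between groups, an immunoprecipitate from an untagged strain was not analysed here, and the kind of control behind the enrichment values is not given. The rule for the set uses positions only. Signal, rank and reproducibility did not enter it, whereas place within the gene model and sequence context depend in part on the distance to a start that the rule sets.

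A promoter is the stretch of DNA where transcription factors and RNA polymerase assemble, and in the compact genome of C. elegans it usually lies in the short space upstream of a gene. When neighbouring genes point away from each other, a single intergenic space can serve both of them, whereas a promoter that faces a single strand serves a lone gene or the head of a run of genes. Many worm genes are trans-spliced to a short leader RNA, and some are transcribed together as operons, so that the 5′ end of a gene model is often a splice site that lies downstream of the place where transcription begins. Nuclear hormone receptors bind DNA through paired zinc fingers, commonly at copies of a short sequence related to AGGTCA, and the family is greatly expanded in nematodes. The ligand and target genes of NHR-237 are not described by the labels.

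The sequences below are those around the 8 highest single-strand regions on II to V whose printed window overlaps no annotated exon. Each line gives 151 bases centred on the pooled summit in the WBcel235 (ce11) genome of RefSeq, read 5′ to 3′ on the strand of the gene. Capitals mark copies, on either strand, of any of 15 words of 7 letters that were more frequent around the strongest single-strand regions than around the rest; the words are described with the sequence results. The word AACACGC, or its reverse complement GCGTGTT, stands in 5 of the 8 windows, and the other 3 hold CTGCGTC. The genes are rpl-3 and rpl-35 (proteins of the large ribosomal subunit), cdc-48.1 (an AAA ATPase that extracts ubiquitinated proteins), eelo-2, his-37 (histone H4), cox-5A (a subunit of cytochrome c oxidase), sec-61.G (a subunit of the translocon of the endoplasmic reticulum) and ntl-11 (a subunit of the CCR4-NOT deadenylase complex).
rpl-3, chrIII:3867486-3867636, plus strand: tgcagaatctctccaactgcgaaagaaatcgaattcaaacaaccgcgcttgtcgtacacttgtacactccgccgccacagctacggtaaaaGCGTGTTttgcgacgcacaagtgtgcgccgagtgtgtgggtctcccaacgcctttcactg
rpl-35, chrIII:7854619-7854769, plus strand: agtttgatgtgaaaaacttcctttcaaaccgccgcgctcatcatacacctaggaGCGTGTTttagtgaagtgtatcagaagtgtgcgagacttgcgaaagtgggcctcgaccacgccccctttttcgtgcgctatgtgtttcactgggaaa
cdc-48.1, chrII:10563511-10563661, minus strand: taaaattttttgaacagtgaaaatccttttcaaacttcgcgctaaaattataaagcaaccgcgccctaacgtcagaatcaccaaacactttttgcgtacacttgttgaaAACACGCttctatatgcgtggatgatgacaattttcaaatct
eelo-2, chrIV:17249829-17249979, plus strand: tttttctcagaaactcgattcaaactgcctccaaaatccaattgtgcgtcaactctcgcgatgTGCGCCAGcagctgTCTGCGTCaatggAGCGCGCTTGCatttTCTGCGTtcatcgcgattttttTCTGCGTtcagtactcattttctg
his-37, chrV:9546949-9547099, plus strand: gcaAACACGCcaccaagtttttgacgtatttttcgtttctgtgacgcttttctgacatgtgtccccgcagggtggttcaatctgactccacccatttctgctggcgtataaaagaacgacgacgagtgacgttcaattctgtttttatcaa
cox-5A, chrIII:12905124-12905274, plus strand: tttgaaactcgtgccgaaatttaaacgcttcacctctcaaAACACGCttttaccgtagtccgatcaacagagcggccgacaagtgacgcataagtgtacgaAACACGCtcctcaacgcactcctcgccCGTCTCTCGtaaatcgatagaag
sec-61.G, chrV:10897324-10897474, minus strand: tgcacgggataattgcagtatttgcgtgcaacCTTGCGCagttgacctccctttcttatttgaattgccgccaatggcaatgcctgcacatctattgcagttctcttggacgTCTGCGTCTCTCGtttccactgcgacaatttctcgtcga
ntl-11, chrIV:15471511-15471661, minus strand: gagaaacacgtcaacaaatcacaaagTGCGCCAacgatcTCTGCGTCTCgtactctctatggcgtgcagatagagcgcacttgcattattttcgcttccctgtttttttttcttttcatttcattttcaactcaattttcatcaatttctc

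Most of these regions were weak, and few entered the list of reproducible peaks. The authors kept 350 of the pooled regions after a test on the irreproducible discovery rate (IDR), or 5.35% of all regions, and these were the 350 with the highest pooled signal. Of the 1892 single-strand regions, 111 were kept, which is 5.87% (exact binomial 95% interval 4.85 to 7.02). That share was close to the share of all regions. Intervals here cover counting error among regions only, because each library gives a single list and its depth is unknown. The signal is the authors' enrichment over the control on the scale of its own list. The median pooled signal of the single-strand regions was 22.2 (21.9 to 22.4), the quartiles were 20.2 and 26.1, the lowest value was 18.8 and the highest 295, and all pooled regions had a median of 21.9.

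The single-strand regions stood between the other autosomal classes. Among the regions with starts on both strands, 95 of 471 were kept (20.2%, 16.6 to 24.1), and among those away from starts 70 of 3000 (2.33%, 1.82 to 2.94). The difference between single-strand and both-strand regions was -14.3 percentage points (Newcombe 95% interval -18.3 to -10.7). Against regions away from starts the difference was 3.53 points (2.39 to 4.78). Neither interval includes 0. On the X chromosome 26 of 379 single-strand regions were kept (6.86%, 4.53 to 9.89), and the difference from the autosomal ones, -0.993 points (-4.15 to 1.43), was within its counting error.

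Among the pooled regions, the ranks of each library gave the same order of classes. The pooled list was made from the reads of both libraries, so this likeness is partly built in. Of all pooled regions, 5.37% had a summit within 150 bp of a region ranked in the first 350 of replicate 1, and 5.01% in replicate 2. For the single-strand regions these shares were 6.08% (115 regions) and 5.29% (100 regions). The both-strand regions reached 18.3% and 16.3%, and those away from starts 2.43% and 2.83%. The difference between single-strand and both-strand regions was therefore -12.2 points in replicate 1 (-16.1 to -8.75) and -11.1 points in replicate 2 (-14.8 to -7.81). The 2 libraries differed from each other by less than the classes did.

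**Figure D1:**
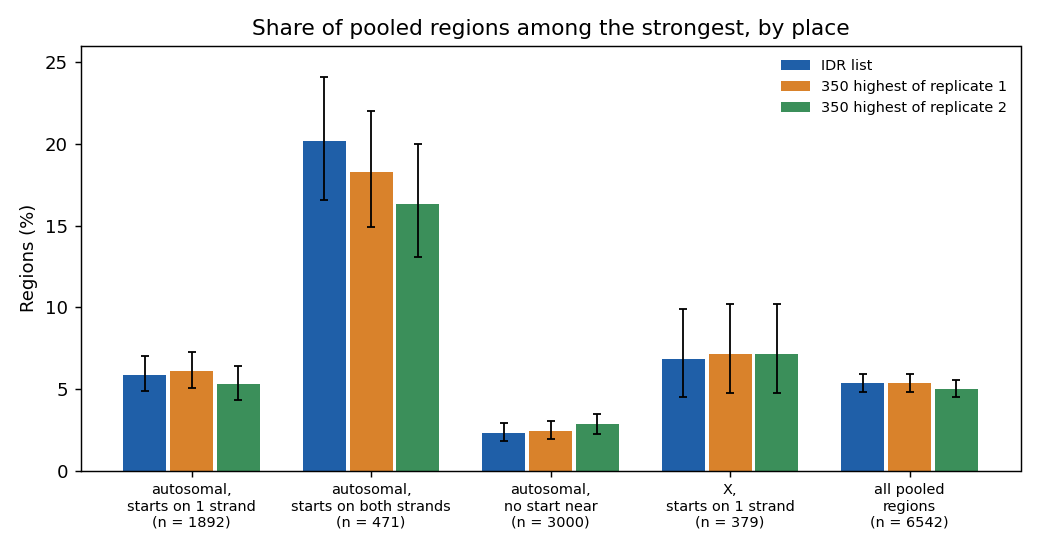
Percent of regions in the IDR list and among the 350 highest regions of each replicate, for the 3 autosomal classes, the X chromosome and all pooled regions, with exact binomial 95% intervals. In all 3 readouts the single-strand regions, at 5.29 to 6.08%, lie near the share of all regions and below the both-strand regions, at 16.3 to 20.2%.

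The kept share varied modestly among the autosomes. It was 8.12% on chromosome III (26 of 320), 6.72% on II (24 of 357), 6.23% on I (23 of 369) and 5.84% on IV (22 of 377). Chromosome V had the most single-strand regions and the lowest kept share, 16 of 469 (3.41%, 1.96 to 5.48). The shares of all pooled regions on III and V were 6.27% and 3.47%, so III was above V in the whole list too. The highest share of the whole list was on chromosome I, at 6.44%. Chromosome IV was the one where the single-strand regions were furthest above the whole list, at 3.77%, although their interval (3.69 to 8.7) includes that value.

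A second start on the same strand was uncommon. In 1778 regions a single start lay within 1000 bp of the summit, and 97 of them were kept (5.46%, 4.45 to 6.62). Of the 108 regions with 2 starts, 13 were kept (12%, 6.57 to 19.7). Only 5 regions had 3 starts and 1 had 4. The kept one with 3 starts lay 87 bp upstream of egl-30, which encodes the alpha subunit of a Gq protein, and also near rpl-27, a gene of the large ribosomal subunit. Its pooled signal was 62, with 42.3 in replicate 1 (rank 150) and 20.5 in replicate 2 (rank 220). The single region with 4 starts, closest to ZK856.16 and also near rpc-25, an RNA polymerase III subunit gene, had a signal of 22.3, near the median of the set.

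The summits lay mainly upstream of the starts, and far more so where the signal was high. Positions are along the strand of the closest gene, with negative values upstream. Over all 1892 single-strand regions the median position was -116 bp (-139 to -94), with quartiles of -412 and 370 bp, and 1122 summits (59.3%, 57 to 61.5) were upstream. Among the 111 kept regions the median was -206 bp (-256 to -178), and 101 were upstream (91%, 84.1 to 95.6). The other 1781 regions had a median of -103 bp, with 57.3% upstream. Of the kept regions 64 (57.7%) fell within 300 bp upstream, against 440 (24.7%) of the others. This rise was not particular to the set. Of both-strand regions 74.9% were upstream, and of their kept ones 86.3%. On the X chromosome the shares of single-strand regions were 56.5% and 84.6%. Within 300 bp upstream lay 61.4% of both-strand regions, against 26.6% of all single-strand regions.

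The same shift was seen when all single-strand regions were divided into quintiles by pooled signal. From the lowest to the highest quintile the share upstream was 51.7%, 55.3%, 52.1%, 60.1% and 77.3%. The 3 lower quintiles, with signals up to 23.5, were thus near an even split around the start. The share of summits in intergenic sequence was 39.3% in the lowest quintile and 68.9% in the highest, where signals ran from 27.6 to 295. The share in coding exons was 23% and 7.12% in these quintiles, and the median GC content of the window of 100 bp on each side of the summit was 34.3 to 34.8% in the lower 4 quintiles and 38.8% in the highest. The share of regions with a summit in both replicate lists was 36.1% in the lowest quintile and 81% in the highest.

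Along the promoter, the kept share was highest between 100 and 200 bp upstream. There 28 of 182 regions were kept (15.4%, 10.5 to 21.5). It was 11.7% between 200 and 300 bp upstream, 10.5% in the 100 bp next to the start and 5.15% in the first 100 bp downstream. Between 100 and 300 bp downstream none of the 142 regions was kept (0 of 74 and 0 of 68, exact upper bounds 4.86% and 5.28%). Single-strand regions were below both-strand regions in every range of position compared, although the intervals overlap in several of the ranges. Between 100 and 300 bp upstream the kept shares were 13.6% (49 of 361) and 26.9% (50 of 186), and downstream within 500 bp they were 1.5% (6 of 401) and 12% (12 of 100).

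**Figure D2:**
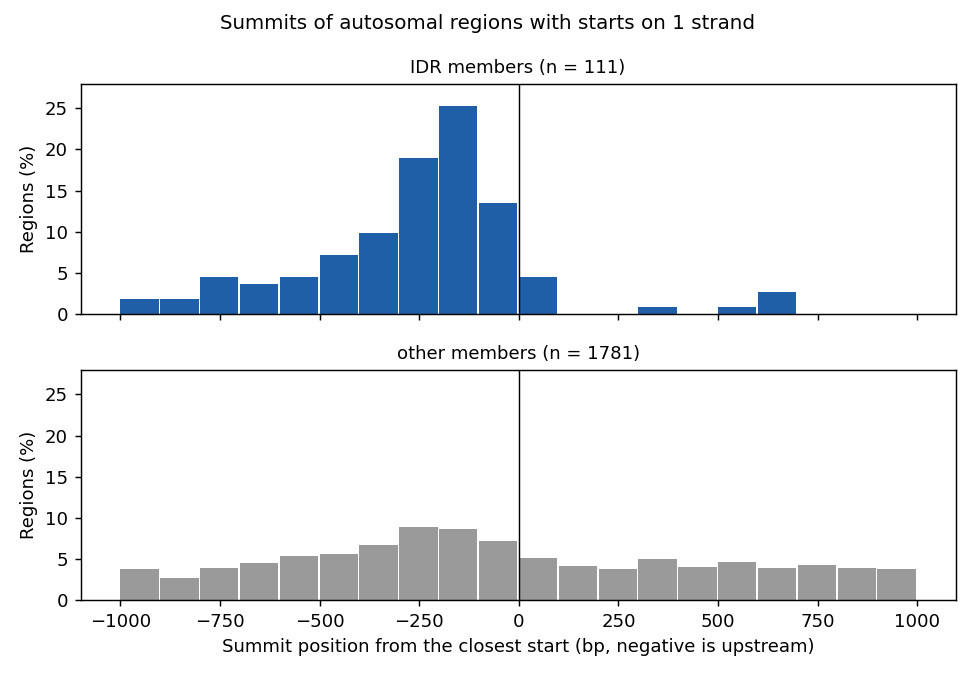
Percent of regions by position of the summit from the closest 5′ end, in bins of 100 bp with upstream negative, for the 111 kept single-strand regions (IDR members, upper panel) and the 1781 others (lower panel), both on the same vertical scale. Of the kept regions 57.7% lie within 300 bp upstream, and the others, at 24.7%, are spread over both sides of the start.

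The pooled regions were also placed by the closest summit of each library. That summit lay within 150 bp of the pooled one by definition, so positions could move little. The median summit position was -116 bp with the closest summit of replicate 1 (1650 regions) and -141 bp with that of replicate 2 (1215 regions), and 59.6% and 62.9% lay upstream. The replicate 2 values lay just outside the intervals of the pooled positions (-139 to -94 bp, 57 to 61.5%). For kept regions the values were -212 and -231 bp, with 90.1% and 90.7% upstream. The summits of kept regions moved by a median of 9 bp in replicate 1 and 23 bp in replicate 2 from the pooled summit. Of the regions 900 to 1000 bp from a start, just inside the limit of the rule, 2 of 137 were kept (median signal 21.5), and of those 1000 to 1100 bp away, just outside it, 6 of 140 (median signal 21.1).

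Intergenic sequence held nearly all of the strong single-strand regions. Of 914 intergenic summits 97 were kept (10.6%), which made up 87.4% of the 111. Introns held 467 summits, of which 5 were kept (1.07%). Coding exons held 326, of which 2 were kept (0.613%). The parts of exons that do not code held 185, of which 7 were kept (3.78%). Among both-strand regions 79 of 332 intergenic summits were kept (23.8%), out of 95 kept in all. Away from starts the count was 33 of 1112 (2.97%), out of 70 kept in all.

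The gene next door upstream was also recorded, because a short gap to a gene on the same strand is the usual layout inside operons. A tandem neighbour less than 500 bp away was found for 493 single-strand regions (26.1%), while 18.9% of all autosomal protein-coding genes have one. A tandem neighbour at 500 bp or more was found for 714 regions (37.7%, against 31.6% of genes), and a neighbour on the opposite strand for 556 (29.4%, against 42.2%). The rule itself lowers this last share, since a neighbour that starts within 1000 bp of the summit on the opposite strand removes the region. Because the shares make up the whole set, the rule also raises the tandem shares. How much of their excess over all genes comes from the rule was not tested. The kept shares were 6.29% (4.31 to 8.81) with a close tandem neighbour, 4.62% (3.2 to 6.43) with a distant one and 7.37% (5.34 to 9.87) with one on the opposite strand, and these intervals overlap. Among summits upstream of the start, the kept shares were 9.93%, 6.61% and 12.4%. A start inside another gene was seen at 129 regions, of which 6 were kept.

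The 25 highest single-strand regions had signals from 78 to 295. All 25 matched a region ranked in the first 350 of each library. In 24 of them the summit was upstream of the start, and in 23 it was intergenic. The exceptions were ints-4, a subunit of the Integrator complex that processes nascent RNA, with a summit 38 bp downstream of the start in the noncoding part of an exon, and rpl-24.2, where the summit lay in an intron of the gene that surrounds its start.

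The highest region was that of rpl-3, a core protein of the large ribosomal subunit, with a pooled signal of 295 at -293 bp. Its signal was 186 in replicate 1 (rank 11 of all regions in that library) and 110 in replicate 2 (rank 6). The region of rpl-35 followed with a pooled signal of 196 at -440 bp, with 138 in replicate 1 (rank 16) and 60.6 in replicate 2 (rank 21). Both genes ranked alike in the 2 libraries. The third gene among the 25 that counts as ribosomal by its symbol, rpl-24.2, had a pooled signal of 95.1, with ranks of 65 and 54. The small-subunit gene rps-28 had 90.6 at -472 bp, with ranks of 85 and 42.

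The region of cdc-48.1 lay at -179 bp with a pooled signal of 174, with 115 in replicate 1 (rank 22) and 62.9 in replicate 2 (rank 20). That of hsp-1, the constitutive HSP70 chaperone, had 88.4 at -403 bp, with ranks of 114 and 39. The translocon gene sec-61.G had 105 at -256 bp, with 81.1 in replicate 1 (rank 34) and 26.9 in replicate 2 (rank 111). The ubiquitin ligase gene wwp-1 had 84.6, with ranks of 58 and 129. The ranks of these last 3 genes differed more between the libraries than those of cdc-48.1.

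Several of the 25 genes encode mitochondrial proteins, a grouping made after their values were seen. The region of cox-5A had a pooled signal of 119 at -292 bp, with 71.1 in replicate 1 (rank 46) and 44.9 in replicate 2 (rank 36). That of dld-1, the dihydrolipoamide dehydrogenase shared by several mitochondrial complexes, had 111 at -243 bp, with ranks of 54 and 38. The region of ddp-1, a small chaperone of mitochondrial import, had 95 at -136 bp, with ranks of 56 and 92. The region of dbt-1, a component of branched-chain keto acid dehydrogenase, had 80.9 at -148 bp and was less even, with rank 62 in replicate 1 and rank 268 in replicate 2.

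Others act in chromatin, transcription or translation. The histone H4 gene his-37 had a pooled signal of 136 at -81 bp, with 83.3 in replicate 1 (rank 33) and 50.8 in replicate 2 (rank 27). The region of eif-3.C, a subunit of translation initiation factor 3, had 99.8 at -241 bp, with ranks of 52 and 73. The region of rpb-11, a subunit of RNA polymerase II, had 81.2 at -107 bp, with ranks of 98 and 80. The ranks of these genes were close in the 2 libraries. The ntl-11 region, in contrast, had 86.4 in replicate 1 (rank 30) and 21.4 in replicate 2 (rank 188). Its neighbour Y73F8A.27 had a region of its own with a pooled signal of 90.7. The 2 genes face apart across a gap of 1313 bp, and each summit was over 1000 bp from the other gene's start, so that both counted as single-strand regions.

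The rest of the 25 were mixed. The region of tba-2, an alpha-tubulin gene, had 71.3 in replicate 1 (rank 44) and 35.6 in replicate 2 (rank 49) at -75 bp. That of fbxl-2, an F-box gene, had a pooled signal of 78.9. The region of eelo-2 had 147, with ranks of 25 and 28, and that of Y39B6A.43 had 105, with ranks of 40 and 51. The regions of 2 more genes also lay within 250 bp of a small nuclear RNA gene. That of egg-5, a gene of the oocyte-to-embryo transition, had a signal of 140 at -598 bp beside sls-2.4. That of snr-4, a core Sm protein of the spliceosome, had 90.9 at -353 bp beside T11F9.15. A further kept region of snr-4, with a signal of 62.1, lay beside the same snRNA gene and matched the same region of replicate 1. The part of the snRNA genes in these values was not tested.

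**Figure D3:**
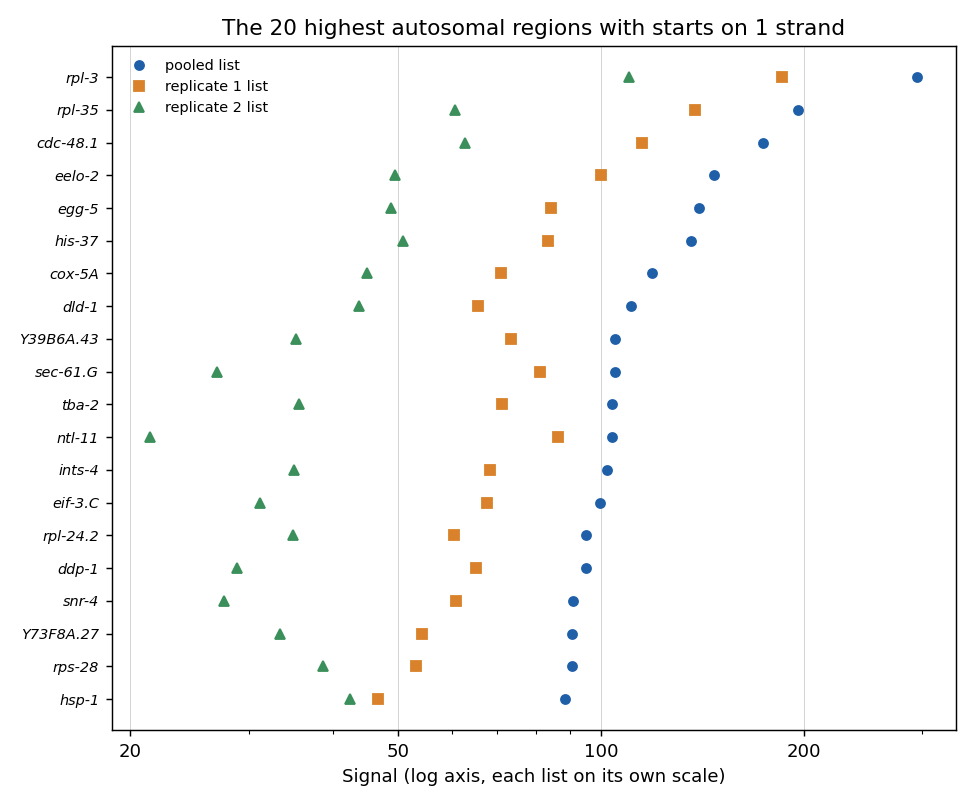
Signal of the 20 highest single-strand regions in the pooled list, replicate 1 and replicate 2, on a logarithmic axis, labelled by the gene with the closest start. Each list has its own scale, so order and not level is comparable, and rpl-3 is highest in all 3.

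Small noncoding genes were otherwise rare in the set. A tRNA, snoRNA, snRNA or miRNA gene lay within 250 bp of 46 single-strand summits (2.43%), against 206 of all pooled regions (3.15%). Of the 46, 10 were kept, and 6 of these 10 were beside snRNA genes. Of the 206 in the whole list, 42 were kept, and 14 of these 42 were beside snRNA genes. No summit in the set was near a rRNA gene. Without regions near such genes the kept share was 5.47%.

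The 2 libraries held most of the kept regions but only part of the rest. A summit of replicate 1 lay within 150 bp of 1650 single-strand summits and one of replicate 2 of 1215, and 1011 (53.4%) had both. About 8.8% of autosomal sequence lies within 150 bp of a replicate 1 summit and 8.81% of a replicate 2 summit, while the pooled list was made from the same reads, so that these shares are partly built in. All 111 kept regions had a summit in replicate 1 and 108 in replicate 2. The 3 without one in replicate 2 include rpl-41.2, a gene of the large ribosomal subunit, whose pooled signal was 65.2 and whose rank in replicate 1 was 95.

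Agreement in rank was weaker than agreement in presence. Of the 111 kept regions, 96 matched the first 350 of replicate 1, 71 those of replicate 2, 62 both and 6 neither. Over the 108 kept regions found in both, the signal of replicate 1 exceeded that of replicate 2 by a median ratio of 1.89, on scales that belong to each list. The rank correlation of the 2 signals was 0.433 over these kept regions and -0.0814 over the 903 others found in both. These points are regions of the same 2 libraries, listed by a signal pooled from both, and the correlations are given as a description only.

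Single regions show how wide the spread was. The region at nduf-11, a subunit gene of mitochondrial complex I, had 54.1 in replicate 1 (rank 80) and 11.6 in replicate 2 (rank 2767). That of nlp-24, a neuropeptide gene, had 34.2 (rank 232) and 8.18 (rank 10026). In the opposite direction, that of tomm-20, a receptor of mitochondrial protein import, had 32.3 in replicate 1 (rank 273) and 39.3 in replicate 2 (rank 41). These 3 regions and rpl-41.2 were chosen after their values were seen.

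**Figure D4:**
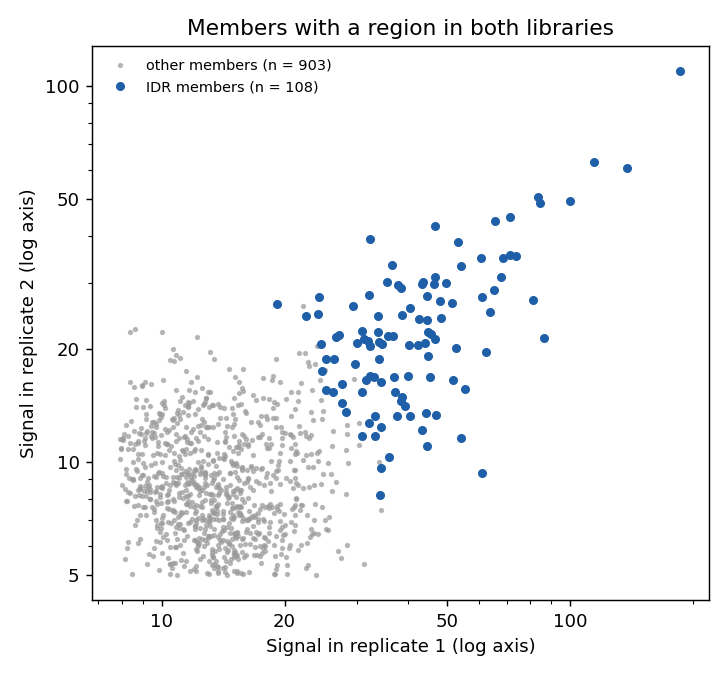
Signal in replicate 1 against replicate 2, both axes logarithmic, for the 1011 single-strand regions with a summit in both lists, with the kept regions (IDR members) as large points and the others as small ones. The 108 kept regions have a rank correlation of 0.433 and the 903 others of -0.0814.

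Gene groups, drawn up by gene symbol, were described over the genes with a start within 1000 bp of a single-strand summit. Of 17242 autosomal protein-coding genes, 1880 (10.9%) had one, and 122 (0.708%) were at a kept region. Several groups of growth and housekeeping genes were above these shares. Among cytoplasmic ribosomal protein genes 27 of 81 (33.3%, 23.2 to 44.7) were near a single-strand summit and 8 of 81 (9.88%, 4.36 to 18.5) at a kept one, and the median signal at the 27 was 35.5 against 22.2 for all genes. Ribosomal protein genes were also near both-strand regions, 38 of them in all and 18 at kept ones. In the respiratory chain 13 of 46 genes (28.3%) were near and 3 at a kept region, with cox-5A the highest, followed by nduf-11 and by cox-6A, whose region lay beside the snRNA gene F54D8.7. In the transcription machinery 17 of 76 (22.4%) were near and 4 at a kept region, with ntl-11, rpb-11 and rpac-19, a subunit of RNA polymerases I and III, among them.

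Further groups of this kind covered secretion, folding, mitochondrial translation, protein turnover and splicing. The exact intervals of their near shares, and of those of translation factor, tRNA synthetase and histone genes, include the 10.9% of all genes. Of these groups, only the translocon and chaperone groups had kept-share intervals (0.818 to 22.1 and 0.977 to 13.1) above the 0.708% of all genes. Of 30 genes of the translocon, COPII and vesicle coats 7 (23.3%) were near and 2 at a kept region, sec-61.G and sec-24.1, the latter a COPII coat gene with a signal of 68.3. Of 64 chaperone genes 12 (18.8%) were near and 3 at a kept region, with hsp-1 the highest and dnj-9 at 56.5. The third, hsp-12.3, a small heat shock protein gene, was near a pair of kept regions with signals of 56.4 and 51.1 that lay within 250 bp of the snRNA gene F38E11.11 and also near F38E11.9. Of 70 genes of the mitochondrial ribosome 12 (17.1%) were near and 1 was at a kept region, mrpl-28, with 60.9. Translation factors had 6 of 42 (14.3%), proteasome subunits 3 of 33 (9.09%) and splicing factors 5 of 49 (10.2%) near, each with 1 at a kept region (eif-3.C, rpn-11 and snr-4). Of 31 tRNA synthetase genes 2 (6.45%) were near and none at a kept region. The near shares of the proteasome, splicing and tRNA synthetase groups were thus below the 10.9% of all genes, though within counting error of it. Both-strand regions, which the rule leaves out, were near 10 proteasome, 12 splicing and 5 tRNA synthetase genes, against 914 of 17242 autosomal genes. Of 85 histone genes 4 (4.71%) were near and 1, his-37, was at a kept region.

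Groups of regulatory and environmental genes were seldom at kept regions, as were genes overall (0.708%). That share lies within the exact intervals of all these groups except the chemoreceptors. Nuclear hormone receptor genes, the family of the tagged protein, were near single-strand summits at about the share of all genes, 25 of 247 (10.1%), with none kept (exact upper bound 1.48%). Their highest signal was 31.4, at nhr-85. No region of the set was near nhr-237 itself, whose closest pooled region was 111255 bp away, or near unc-119, whose closest was 1873 bp away. Chemoreceptor genes had 71 of 1225 (5.8%) near and none kept (upper bound 0.301%), and genes with F-box or MATH/BTB domains 20 of 465 (4.3%) and none (upper bound 0.79%). Collagens and cuticle genes had 16 of 194, C-type lectins and lysozymes 18 of 286, detoxification genes 19 of 171 and homeobox genes 5 of 58 near, and none of these was kept. Neuropeptide genes had 14 of 108 near, with nlp-24 alone at a kept region.

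Lists of genes that stand for tissues of the larva were small. Of 33 muscle genes 3 were near a single-strand summit, of 35 intestinal genes 5, of 112 neuronal genes 14 and of 61 genes of the hypodermis and seam 8, and none was at a kept region. The share of all genes, 0.708%, lies within the intervals of these lists, whose exact upper bounds run from 3.24% to 10.6%. The highest among them were grl-22, a gene of the hypodermal list, with a signal of 29.7, dop-2, a dopamine receptor, with 27.7, and unc-89, a giant sarcomere protein, with 25.9. Of 113 germline genes 12 were near and 1, spe-15, was kept, with a signal of 47.4 and a tRNA gene within 250 bp. Since larvae were taken whole, binding in a few cells and weak binding in many cannot be told apart.

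**Figure D5:**
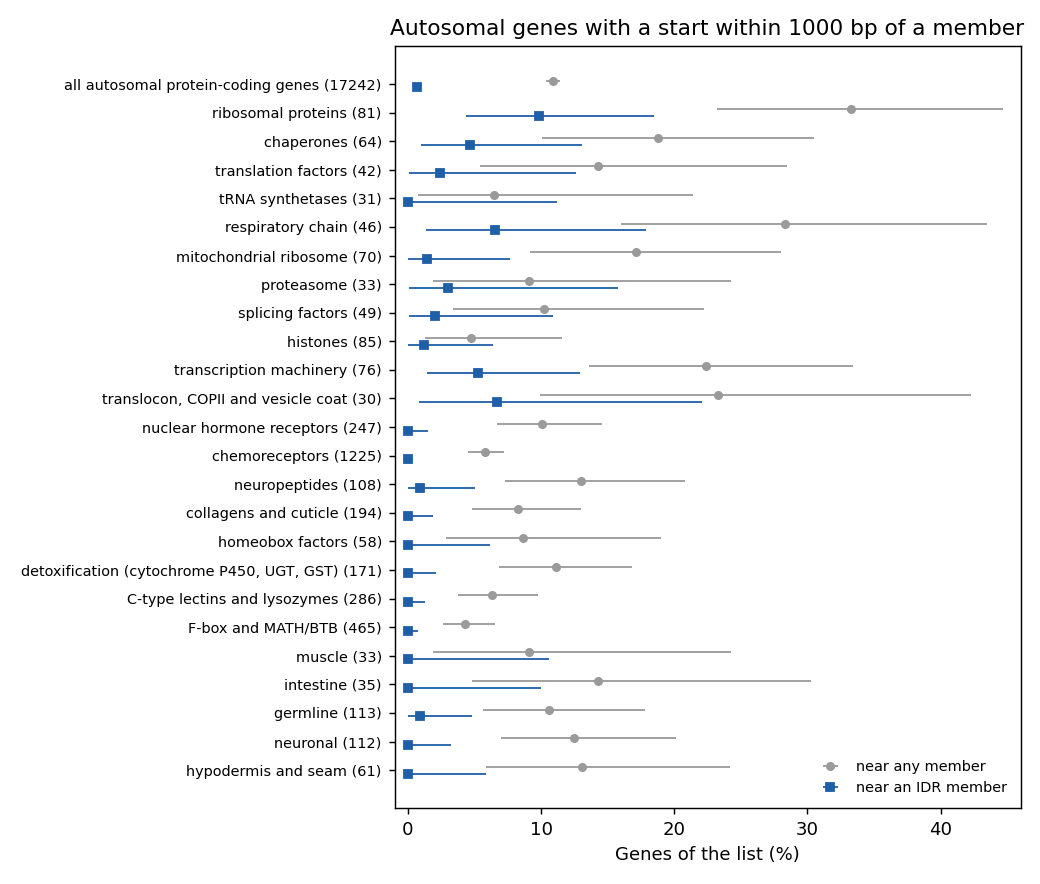
Percent of the genes of each group with a start within 1000 bp of any single-strand summit (near any member) and of a kept one (near an IDR member), with exact binomial 95% intervals and the number of genes in brackets. Over all autosomal protein-coding genes the shares are 10.9% and 0.708%, and for ribosomal protein genes 33.3% and 9.88%.

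Kept regions were richer in G and C than the others. In the window of 100 bp on each side of the summit the median GC content was 42.3% in kept regions (quartiles 38.8 and 47.8), 34.8% in the others and 32.8% in windows of the same length before all autosomal gene starts. When the regions were divided into quintiles by GC content, the kept share was 0.482%, 1.69%, 3.8%, 8.06% and 16.3%. The part of GC content in the signal was not tested.

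Among 9 motifs taken from known binding and splice sites, the nuclear receptor sequence AGGTCA was about as frequent at kept summits as at gene starts. Motifs were sought on both strands of the same window. It was found in 4.18% of single-strand regions, 6.31% of kept ones (2.57 to 12.6), 4.75% of all regions and 6.05% of gene starts, and the variant AGTTCA in 11.1%, 7.21% (3.16 to 13.7), 11.4% and 14.3%. TGATAA, the letters of a GATA factor site, was found in 11.7% of kept regions (6.39 to 19.2), 15.8% of the others and 22.9% of gene starts. TATAAA was in 12.6% (7.07 to 20.3), 23.5% and 30.7%, and TTTCAG, the letters of a 3′ splice site, in 24.3% (16.7 to 33.4), 35.1% and 37.5%. The interval of TGATAA includes the share of the others, and those of TATAAA and TTTCAG do not. The part of GC content in these shares was not tested. GAGAGAG was the one with the widest excess, at 16.2% of kept regions (9.9 to 24.4), 5.33% of the others and 5.12% of gene starts. CCGCCC was in 9.01%, 5.61% and 5.89%, CACGTG in 4.5%, 3.14% and 4.37%, and TGACTCA in 2.7%, 1.91% and 2.48%, with intervals of the kept regions that include the other values.

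Words of 7 letters were then ranked by the difference of their share between the 111 kept and the 1781 other single-strand regions, so their shares in these regions are a description. The 15 highest included GAGACGC with 4 words that share at least 5 letters in a row with it, among them CTGCGTC, each taken with its reverse complement. At least 1 of the 5 was found in 37.8% of kept and 10.2% of other single-strand regions. Regions outside the set were not used for the ranking. Away from starts, 47.1% of kept and 8.5% of other regions held one of the 5 words, on the X chromosome 37.8% and 6.7%, and with starts on both strands 27.4% and 11.4%. Thus this group was also more frequent in kept regions elsewhere in the genome. The sec-61.G and ntl-11 windows printed above hold it as an uninterrupted run of capitals.

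CGCTTGC was ranked with a further word that overlaps it. At least 1 of this pair was found in 25.2% of kept and 2.08% of other single-strand regions, and in 18.9% and 5.59% of both-strand regions. Away from starts the shares were 8.57% and 1.33%, and on the X chromosome 4.05% and 2.44%. TGCGCCA and the 2 words that overlap it were in 26.1% and 4.83% of single-strand, 21.1% and 10.1% of both-strand and 11.4% and 3.82% of away regions. The eelo-2 window holds words of both of these groups as well as CTGCGTC. The word CGAGAGA, which overlaps the searched motif GAGAGAG, was in 16.2% and 3.82% of single-strand regions and in 32.9% and 3.62% of those away from starts.

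AACACGC was the word most concentrated at the very top. It was found in 9 of the 25 highest single-strand regions (36%, 18 to 57.5), in 6 of the other 86 kept regions (6.98%), in 9 of the 268 others of the highest quintile (3.36%) and in 19 of the 1513 regions of the lower quintiles (1.26%). CTTGCGC, the word that overlaps CGCTTGC, was in 8 of the 25 (32%, 14.9 to 53.5). It was in 8.14% of the other kept regions and 0.661% of the lower quintiles. The cox-5A window printed above has AACACGC at 2 places. In both-strand regions it was in 5.26% of kept and 3.99% of other regions, away from starts in 7.14% and 0.99%, and on the X chromosome in 5.41% and 1.27%. All these words are rich in G and C, which kept regions also were. Shares were also taken among regions with a GC content from 38.8 to 47.8%, the quartiles of the kept ones. There GAGACGC was in 16.9% (8.44 to 29) of kept and 10.1% (7.47 to 13.3) of other single-strand regions, and these intervals overlap. CGCTTGC was in 13.6% (6.04 to 25) and 2.25% (1.08 to 4.09), and AACACGC in 16.9% (8.44 to 29) and 1.8% (0.779 to 3.51). A match describes the letters in the window, and whether NHR-237 binds them was not tested.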

How the data were processed

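Per the deposited descriptions of the files, the authors made a relaxed region list for each library and a further one for the pool of both, with a control alignment as background, and filtered the pooled list by IDR. Not given in the sources used here are the aligner, peak caller, IDR threshold and depth. The signal of each region is the authors' deposited enrichment over the control. The −log10 q-value was also deposited and was not used for ranking.

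Summits of the ce11 lists were placed against gene models of Ensembl release 115 (WBcel235), taking the outermost 5′ end of each protein-coding gene. A summit within 150 bp counted as shared between lists. Shares carry exact binomial 95% intervals, medians the binomial interval of the order statistics and differences Newcombe's. No significance test was made, since both libraries belong to 1 group. Named genes are those closest to the 25 highest regions, up to 3 with the highest signal from each of 24 gene lists with at least 3 genes near, and those of regions with the most starts. The text names only some of them, and 1 of the 25 is not reported here. Other named genes are said to be chosen after their values were seen, or mark a boundary or a count. Members and lists were chosen with earlier results of these data known. Alternatives changed the distance, the starts used, the threshold, the overlap, the window and the library. The procedures were tested on simulated data. Python 3.11.15, NumPy 2.4.6, pandas 2.3.3, SciPy 1.17.1 and matplotlib 3.10.9 were used.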

Additional observations from a re-analysis of the deposited data

How the results depend on the processing

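The kept share of 5.87% was 8.66% with starts within 500 bp, 4.31% within 2000 bp and 3.07% with a stricter list of the upper IDR peaks. The stricter list holds only part of the IDR peaks, so by construction it also lowers the kept share of all pooled regions. The fall to 3.07% is therefore not read as particular to the single-strand regions. The kept share was 12.7% for summits 0 to 300 bp upstream, an alternative chosen after seeing the data. In place of the IDR list, the 350 highest regions of a single replicate gave 5.29 to 6.08% of the same pooled regions. The difference from both-strand regions, -14.3 points, was -9.13 within 2000 bp, -10.4 with starts of every biotype and -7.13 with a stricter list of the upper IDR peaks. Both shares behind the value of -7.13 come from the shorter list, so its direction and not its size is comparable. Counted by the 350 highest regions of a single replicate, the difference was -12.2 to -11.1 points. The median signal of 22.2 was 22.7 within 500 bp and 21.9 within 2000 bp. The share upstream, 59.3%, was 65.2% within 500 bp, 56% within 2000 bp and 65.7% for signals above the list's median. With the closest summits of a single replicate, the share upstream was 59.6 to 62.9%. The median position of -116 bp was -152 bp above the median signal and -141 to -116 bp with the closest summits of a single replicate. The share found in both libraries, 53.4%, was 26.7% with summits within 50 bp and 67.6% within 500 bp. Motif shares relative to regions away from starts moved for GAGAGAG (0.969 to 0.639) and TGATAA (0.965 to 0.823) above the median signal, and for CACGTG (0.948 to 0.646) and TTTCAG (0.948 to 0.875) with 50 bp on each side. The other 40 values moved by less than their counting error. Among these, the ratios of TATAAA (1.01 to 0.99 above the median signal) and TGACTCA (1.01 to 0.925 with 50 bp on each side) crossed 1, so no direction is read from them. No other direction reversed. The cause of each move was not tested, but a changed distance or threshold changes the regions counted. No paired analysis was possible because the replicates belong to 1 group. The lack of counts, of an untagged control and of more than 2 libraries limits how firmly weak regions can be read.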
